A study of Homo sapiens with 12 samples.

Results

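Cytosolic ribosomal protein genes were described in RPMI2650 cells, a human nasal epithelial tumour line, grown at an air-liquid interface and sequenced as bulk RNA. They were chosen by name: every row of the deposited table whose symbol is RPL or RPS with a number and an optional A, X or L ending, or is RPSA, RPLP0, RPLP1 or RPLP2, and whose description does not call it a pseudogene. This gave 84 genes of 50868 rows, 52 of the large (60S) subunit and 32 of the small (40S) subunit. Of these, 82 passed the filter on low counts and were tested (50 large, 32 small) among 16554 tested genes; the 2 that did not, RPL10L and RPL3L, are described with the paralogs. The design has 4 libraries of cells given 1 µM PFHxA for 7 days, 4 given 1 µM PFBA for 7 days and 4 of control cells, all wild type and of the same line. PFHxA and PFBA, perfluorohexanoic and perfluorobutanoic acid, are fully fluorinated carboxylic acids that differ in the length of their carbon chain. The labels give no vehicle or culture time for the control cells, and do not say that the 4 libraries of a group came from separate cultures, so p-values measure only the spread between these libraries. A single tumour line stands for nasal epithelium here.

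A ribosome is built from ribosomal RNA and a single copy of nearly every ribosomal protein, so cells make these proteins in matched amounts. Their mRNAs are among the most abundant of a dividing cell, and most begin with a C followed by a run of pyrimidines, the 5′ terminal oligopyrimidine (TOP) tract, through which mTORC1 and the RNA-binding protein LARP1 control their translation and their stability. Free ribosomal proteins also act as signals: RPL5 and RPL11, bound to 5S rRNA, inhibit MDM2 and so raise p53, and inherited loss of a copy of several members causes Diamond-Blackfan anaemia.

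The libraries held 16941599 to 21879105 counts. Libraries are named by the letters a to d of the deposited columns. Control d stood apart: it had the fewest counts, the lowest share of mitochondrially encoded transcripts (9.15%, against 11.0% to 11.9% in the other control libraries) and the largest distance to its replicates (chi-square per degree of freedom 16.7 to 21.5 against the other control libraries, which differed from each other by 10.7 to 12.8). Differences between libraries also leaned with base composition. For all tested genes, log2 CPM minus the gene's mean over the 12 libraries was fitted on GC content and transcript length together. The slope per 10 points of GC content was 0.0706 to 0.104 with PFHxA, -0.0650 to 0.00418 with PFBA and -0.0661 to -0.0132 in Control. GC-rich transcripts were thus relatively higher in PFHxA than in Control libraries, and the PFHxA and Control slopes did not overlap. Of the epithelial markers, KRT8, KRT18 and KRT19 were well expressed (94.1 to 376 CPM over the 12 libraries), EPCAM lay at 37.8 to 45.7 CPM and CDH1 at 5.98 to 12.6 CPM. VIM, usually a mesenchymal marker, lay between 594 and 859 CPM. Summed with COL1A1 it gave 629 to 665 CPM with PFHxA, 628 to 862 with PFBA and 596 to 859 in Control, so COL1A1 added little. Of the basal markers, KRT5 lay at 1750 to 2120 CPM and TP63 at 1.32 to 2.59 CPM. With KRT14 they summed to 1948 to 2122 CPM with PFHxA, 1753 to 1846 with PFBA and 1860 to 1959 in Control. SCGB1A1 was at 0 in every library, PTPRC was at most 0.112 CPM and PECAM1 at most 0.817 CPM. Of 13 markers tested, EPCAM was called with PFHxA against Control (log2 fold -0.18 ± 0.05 SE, adjusted p = 0.0384) and KRT5 with PFHxA against PFBA (0.18, adjusted p = 0.0117).

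The start of the mRNA is the shared sequence feature of this family. RefSeq start positions (GRCh38.p14) were available for 67 members, and windows were read on the coding strand only. A tract of C followed by at least 4 bases that are each C or T began exactly at the annotated start in 47 of the 67 (70.1%), against 1404 of 27305 genes of the same table (5.14%). Allowing 5 bases either way, it was found for 54 members (80.6%) and 25.2% of all genes. The large subunit (34 of 42) and the small subunit (20 of 25) had nearly equal shares. The following 30-base windows run from 10 bases before the annotated start and are shown 5′ to 3′ with the tract in capitals. They are members whose level was lower with PFHxA than in Control, and the parent and paralog pair RPS27 and RPS27L.
RPL26: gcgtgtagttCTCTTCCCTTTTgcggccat
RPL24: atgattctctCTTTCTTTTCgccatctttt
RPL36A: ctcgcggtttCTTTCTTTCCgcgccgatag
RPL41: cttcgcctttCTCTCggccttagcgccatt
RPL7A: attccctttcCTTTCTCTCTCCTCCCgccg
RPS23: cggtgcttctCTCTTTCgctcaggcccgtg
RPS14: ccctcccactCTCTCTTTCCggtgtggagt
RPS7: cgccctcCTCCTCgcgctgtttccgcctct
RPS27: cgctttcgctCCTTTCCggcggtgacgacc
RPS27L: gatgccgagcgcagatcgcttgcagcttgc
RPL26L1: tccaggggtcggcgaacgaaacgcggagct
The windows of RPL26 (chr17:8383174-8383203), RPL24 (chr3:101686699-101686728), RPS23 (chr5:82278335-82278364), RPS14 (chr5:150449720-150449749) and RPS27L (chr15:63157458-63157487) are on the minus strand. Those of RPL36A (chrX:101391001-101391030), RPL41 (chr12:56116623-56116652), RPL7A (chr9:133348208-133348237), RPS7 (chr2:3575250-3575279), RPS27 (chr1:153990752-153990781) and RPL26L1 (chr5:172958719-172958748) are on the plus strand. The tract was 12 bases long in RPL26, 16 in RPL7A and 5 in RPL41. In RPS7 the marked stretch, the match nearest to the annotated start, begins 3 bases before it. The run of pyrimidines in RPS7 extends further upstream than the capitals. No tract of this form lay within 5 bases of the start of RPL26L1 or RPS27L, the paralogs of RPL26 and RPS27. Of the 66 tested members with a start position, the 54 with a tract had a median log2 fold of -0.19 with PFHxA against Control (11 called lower) and the 12 without had -0.23 (4 called lower).

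The family held 4.56, 4.61, 4.65 and 4.68% of all counts with PFHxA, 4.61, 4.76, 4.83 and 5.22% with PFBA and 4.94, 4.98, 5.11 and 5.95% in Control, each given for libraries a to d. Levels between genes were compared as CPM per kilobase of the principal mRNA annotated in GENCODE release 29, which depends on that choice of transcript. In Control the highest large-subunit members were RPL10A (1674 ± 125 CPM per kb), RPL3 (1645 ± 204 CPM per kb) and RPL19 (1493 ± 133 CPM per kb), and the highest small-subunit member was RPS18 (2501 ± 386 CPM per kb) (mean ± SD, n = 4). RPS18 had every control library above those of these 3 genes, at 2062 to 2966 CPM per kb, while the control ranges of RPL10A, RPL3 and RPL19 overlapped, the last at 1310.2 to 1629 CPM per kb. The lowest tested members were RPL21 (17.3 ± 1.53 CPM per kb) and RPL9 (8.36 ± 0.803 CPM per kb) in the large subunit and RPS27L (11.9 ± 0.917 CPM per kb) and RPS26 (7.55 ± 1.31 CPM per kb) in the small subunit. On that scale the small-subunit members had a median of 541 CPM per kb in Control and the large-subunit members 361 CPM per kb.

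Many reads of this family were counted on processed pseudogenes, intronless copies of the mRNA that differ from it at few bases. The table holds 1176 pseudogene rows named after 78 of the members, and they took 25.5% to 26.0% of the combined counts with PFHxA, 25.03% to 26.1% with PFBA and 26.2% to 26.7% in Control. Pseudogene rows held over 50% of the combined counts for 14 members and over 10% for 25. The share reached 97.9% for RPL21, 91.6% for RPS26, 89.98% for RPL23A, 88.2% for RPL7 and 76.7% for RPS2, so the low levels of RPS26 and RPL21 are levels of reads assigned to the gene itself. How the authors assigned reads that match several places is not given in the sources used here. Read-through and overlapping rows add to this: RPL36A-HNRNPH2, which spans RPL36A, held 99.0% as many counts as RPL36A, and the strand setting of the counting is also not given.

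**Figure D1:**
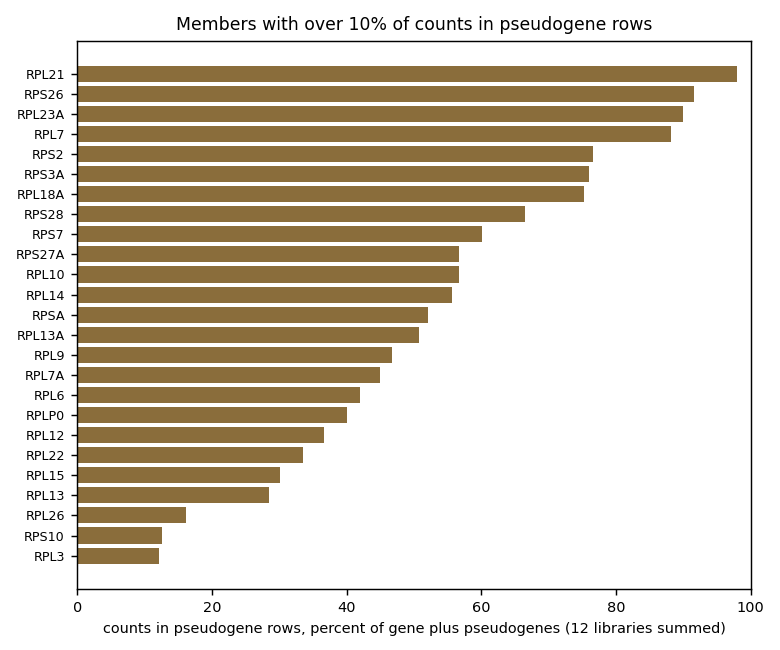
Bars give, for each of the 25 ribosomal protein genes above 10%, the percent of its combined counts (gene plus pseudogene rows named after it, 12 libraries summed) that lies in pseudogene rows. RPL21, RPS26 and RPL23A have the highest shares.

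With PFHxA against Control, 19 of the 82 tested members were lower at an adjusted p under 0.05 and 0 were higher; of all tested genes 8.82% were called lower and 6.08% higher. The large subunit had 14 of 50 called lower and the small subunit 5 of 32. The changes were small: fitted log2 folds of all members ran from -0.43 to 0.53 with a median of -0.19, beside -0.00385 for all tested genes. Fitted values were below 0 for 78 of 82 members (50.6% of all genes), in all 32 of the small subunit and 46 of 50 of the large. At an unadjusted p under 0.05, 40 members were lower (background 15.5%) and 1 was higher (background 13.0%). In 32 members the 4 PFHxA libraries all lay below the 4 Control libraries (11.2% of all genes), and 17 of the 19 called members were among them; in 0 they all lay above (9.49%). No member passed a test against a minimum change of 1.5-fold. In bulk RNA, fewer cells with a high level and less RNA per cell cannot be told apart.

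**Figure D2:**
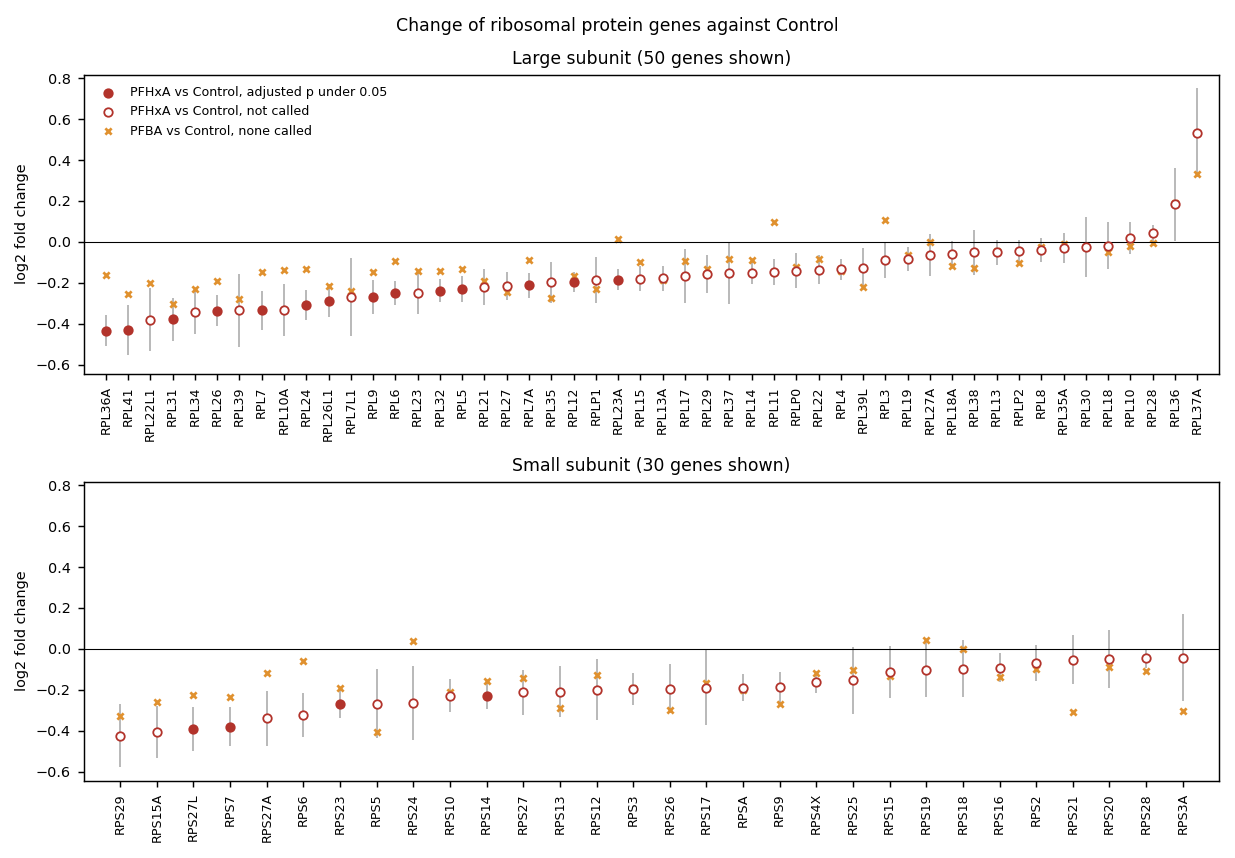
Each column is 1 tested gene (a few members are left out), ordered within its subunit by the log2 fold change with PFHxA against Control (circles, bars give ± SE, filled where the adjusted p is under 0.05); crosses give PFBA against Control. All filled circles lie below 0, and RPL37A (0.53) stands alone at the upper end.

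Library Control d bears on these values. It was the highest of the 4 control libraries for 66 of the 82 members, against 29.6% of all genes, and PFBA d was the highest PFBA library for 60 (26.7% of all genes). Without Control d, 9 members were lower (6.52% of all genes) and 1 higher. In either direction this is 12.2% of members against 10.6% of all genes, and the median log2 fold was -0.12. In either direction, shares were also close without PFHxA b (8.54% of members against 9.08% of all genes) and without PFHxA a (12.2% against 13.8%). The members called in these fits were all lower. Of all genes, 5.24% were called lower without PFHxA b and 8.32% without PFHxA a. When the trend of each library over GC content and transcript length was removed, the median was -0.15 but 2 members were called lower (RPL12 and RPL13A), as 2.65% of all genes were called in either direction. With both steps the median was -0.09 and RPL12 was the 1 member called, or 1.22% of members against 1.34% of all genes. At an unadjusted p under 0.05, 31 members were lower without Control d (13.6% of all genes) and 1 was higher (11.4%). With the trend removed, 29 were lower (9.07%) and 1 was higher (8.1%). With both steps, 21 were lower (7.45%) and 1 was higher (7.0%). The called members had a median GC content of 44.6%, against 48.1% for the others, and the fold with PFHxA correlated with GC content over the 82 members (Pearson r = 0.419, Spearman rho = 0.521), a description of genes that share 8 libraries. With PFBA against Control these were 0.122 and 0.131. In the 41 members with the lower GC content the median fold with PFHxA was -0.24 and 12 were called; in the 41 with the higher it was -0.13 and 7 were called.

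**Figure D3:**
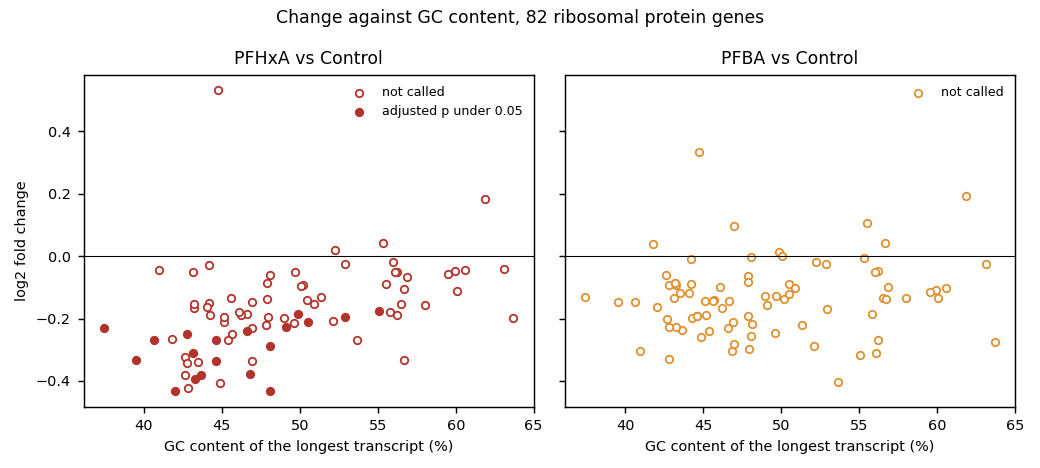
Each point is 1 of 82 tested genes, with the GC content of its longest transcript on the x axis and its log2 fold change on the y axis, for PFHxA against Control (left) and PFBA against Control (right); filled points have an adjusted p under 0.05. Folds with PFHxA are lower toward low GC content (Spearman rho = 0.521), and with PFBA less so (0.131).

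Among members at the peptide exit tunnel, through which the new protein leaves the large subunit, 3 of 9 were lower with PFHxA (RPL23A, RPL26 and RPL31). This is 33.3% of the list, beside 23.2% of all members and 8.82% of all genes called lower. Without Control d, RPL23A and RPL26 were called, and with the GC and length trend of longest transcripts removed none was. RPL26 had 721, 698, 736 and 635 CPM in libraries a to d with PFHxA, 762, 671, 775 and 878 CPM with PFBA, and 873, 857, 833 and 959 CPM in Control. All 4 PFHxA libraries lay below all 4 Control libraries, while PFBA d reached into the control range. RPL26 is a Diamond-Blackfan gene and spans chr17:8377520-8383213 in GRCh38. The fit of RPL26 with PFHxA against Control gave -0.34 ± 0.07 (log2 fold ± SE, adjusted p = 0.00993). RPL31 had 638, 647, 670.4 and 608 CPM in libraries a to d with PFHxA, 672, 536, 691 and 799 CPM with PFBA, and 766, 752, 901 and 914 CPM in Control. PFHxA and Control did not overlap, and Control a and b lay below Control c and d. On the log2 scale RPL31 differed by -0.38 ± 0.10 (SE) with PFHxA against Control, with an adjusted p of 0.0324. RPL23A carries the docking site of the signal recognition particle and of the nascent-chain-associated complex. RPL23A had 141, 123, 135 and 144 CPM in libraries a to d with PFHxA, 149, 158, 153 and 164 CPM with PFBA, and 152, 157, 159.7 and 149 CPM in Control. PFHxA libraries were the lowest of the 3 groups, and PFBA and Control overlapped. This is a log2 fold of -0.19 ± 0.05 (SE) for RPL23A with PFHxA against Control and an adjusted p of 0.0288. The other 6 members of this list, RPL4, RPL17, RPL19, RPL22, RPL35 and RPL39, were not called.

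RPL36A, which lines the site where spent tRNA leaves, had the smallest adjusted p of the family. RPL36A had 13.2, 10.2, 12.1 and 12.3 CPM in libraries a to d with PFHxA, 14.3, 13.9, 14.4 and 15.1 CPM with PFBA, and 16.1, 16.9, 15.4 and 16.2 CPM in Control. The 3 groups did not overlap at all: PFHxA was lowest and Control highest. RPL36A thus gave a log2 fold of -0.43 ± 0.08 (SE) with PFHxA against Control (adjusted p = 0.00347). With the GC and length trend removed its fold was -0.28 (adjusted p = 0.0559). RPL36A lies at chrX:101390824-101396154, and its near-identical autosomal copy RPL36AL, which the naming rule leaves out, was also lower (64.7 ± 10.7 CPM with PFHxA, 81.0 ± 6.53 with PFBA and 91.7 ± 4.26 in Control, SD, n = 4 each; log2 fold -0.50 with PFHxA against Control, adjusted p = 0.00556). How reads that match both genes were assigned is not known, so neither value is certain.

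RPL24, which joins the large subunit late in its assembly and forms a bridge to the small one, was lower with PFHxA. RPL24 had 429, 493, 497 and 510.2 CPM in libraries a to d with PFHxA, 524, 497, 551 and 607 CPM with PFBA, and 581, 569, 566 and 674 CPM in Control. PFHxA and Control did not overlap, and Control d was far above the other control libraries. Fitted over all 12 libraries, RPL24 had -0.31 ± 0.07 (log2 fold ± SE) with PFHxA against Control (adjusted p = 0.0154). RPL6 and RPL32, both structural proteins of the large subunit, were lower too. RPL6 had 652, 616, 594 and 577 CPM in libraries a to d with PFHxA, 725, 608, 669 and 720.1 CPM with PFBA, and 732, 689.5, 734 and 744 CPM in Control. PFHxA and Control did not overlap, and the PFBA libraries overlapped both. RPL6 had a log2 fold change of -0.25 ± 0.06 (SE) with PFHxA against Control (adjusted p = 0.0118). RPL32 had 439.7, 422, 430.3 and 425 CPM in libraries a to d with PFHxA, 410.1, 479, 466 and 479 CPM with PFBA, and 464, 505, 507 and 549.9 CPM in Control. The PFHxA libraries lay close together below Control, and PFBA a lay lower still. The fit of RPL32 with PFHxA against Control gave -0.24 ± 0.06 (log2 fold ± SE, adjusted p = 0.0147). These 3 genes with RPL26 and RPL36A were the 5 members whose call held in all 12 fits that each left out 1 library, and their folds moved to -0.11 (RPL6), -0.17 (RPL24), -0.19 (RPL32), -0.20 (RPL26) and -0.28 (RPL36A) when the trend over GC content and length of the longest transcript was removed, where none of the 5 was called. With the trend of the principal transcript removed in its place, RPL26 was called (-0.27, adjusted p = 0.0297) and the other 4 were not.

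**Figure D4:**
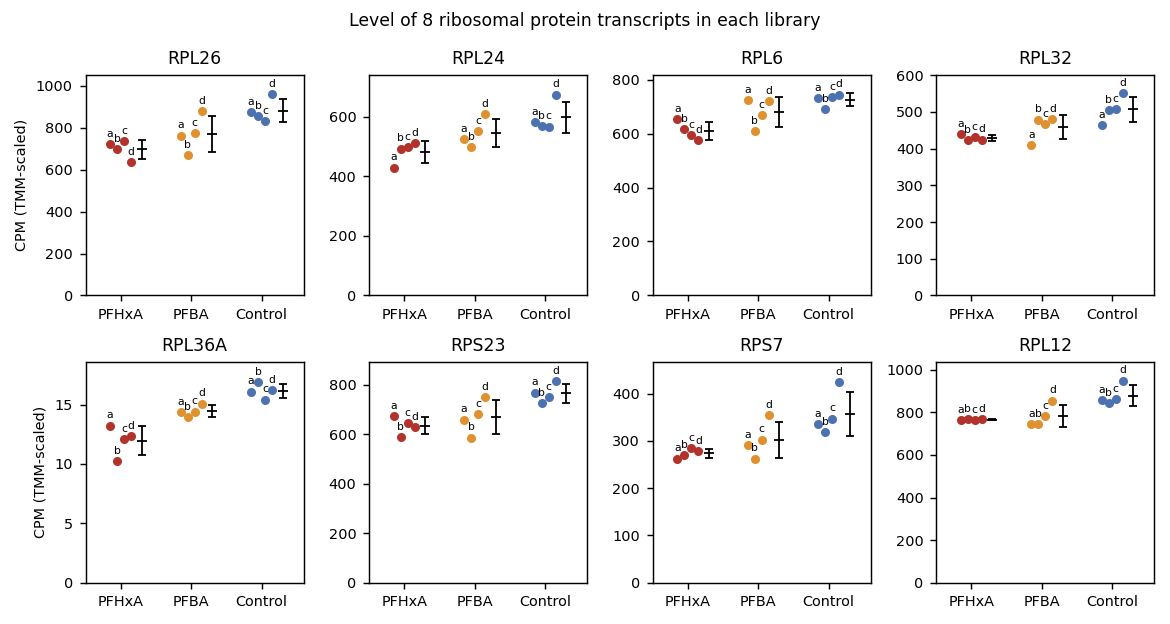
Each panel plots 1 gene, with CPM after TMM scaling on a y axis that starts at 0; points are libraries a to d, and the black bar beside them gives the mean ± SD (n = 4). In these 8 genes every PFHxA library lies below every Control library, while PFBA libraries lie between or overlap both.

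RPL12 forms the base of the P stalk, the arm that recruits elongation factors. It was the 1 of 4 stalk members called, beside RPLP0, RPLP1 and RPLP2. That is 25% of the list, near the 23.2% called lower of all members, beside 8.82% of all genes. RPL12 had 765, 769, 762 and 767 CPM in libraries a to d with PFHxA, 745, 743, 780.4 and 855 CPM with PFBA, and 855, 843, 862 and 949 CPM in Control. The PFHxA libraries were almost equal, with PFBA a and b just below them, PFBA c just above and PFBA d inside the control range. On the log2 scale RPL12 differed by -0.20 ± 0.05 (SE) with PFHxA against Control, with an adjusted p of 0.0196. It stayed called without Control d (-0.16, adjusted p = 0.0443), with the trend removed (-0.23, adjusted p = 0.0214) and with both, and lost its call in 2 of the 12 fits that left out 1 library, those without PFHxA b or PFHxA c (highest adjusted p = 0.0572).

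The 5S ribonucleoprotein, the MDM2 inhibitor named above, had 1 of 2 members called, where 23.2% of all members and 8.82% of all genes were lower. RPL5 had 1256, 1373, 1333 and 1343 CPM in libraries a to d with PFHxA, 1361, 1396, 1408 and 1518 CPM with PFBA, and 1455, 1488, 1493 and 1785 CPM in Control. Control d was far above the rest of its group, and without it PFHxA and Control still did not overlap. This is a log2 fold of -0.23 ± 0.06 (SE) for RPL5 with PFHxA against Control and an adjusted p of 0.0264. By its longest transcript, RPL5 has the lowest GC content of the family (37.4%). With the GC and length trend of longest transcripts removed, its fold turned to 0.07 (adjusted p = 0.581). Its principal transcript has 46.2% GC, above that of RPL9 (40.6%), for example. With the trend of principal transcripts removed, the median fold of RPL5 and RPL11 was -0.10 and 0 of them were called. RPL11 had 781, 776, 748 and 687 CPM in libraries a to d with PFHxA, 826, 926, 865 and 926 CPM with PFBA, and 859, 848, 729 and 876 CPM in Control. Here PFHxA overlapped Control through Control c, but lay below every PFBA library. RPL11 thus gave a log2 fold of -0.15 ± 0.06 (SE) with PFHxA against Control (adjusted p = 0.142). Fitted over all 12 libraries, RPL11 had -0.24 ± 0.06 (log2 fold ± SE) with PFHxA against PFBA (adjusted p = 0.0245).

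The other large-subunit calls were RPL7, RPL7A, RPL9, RPL41 and RPL26L1. None of them was called without Control d or with the GC and length trend removed. Over the 12 fits that left out 1 library, RPL9 lost its call in 9, RPL41 in 7 and RPL7A in 6. RPL7 lost it in 5 and RPL26L1 in 4. RPL41 is the smallest ribosomal protein, a short helix between the subunits. RPL41 had 252, 212, 265 and 275 CPM in libraries a to d with PFHxA, 278, 275, 256 and 325 CPM with PFBA, and 319.8, 290.5, 321 and 423 CPM in Control. PFHxA and Control did not overlap, and the highest value was Control d. RPL41 had a log2 fold change of -0.43 ± 0.12 (SE) with PFHxA against Control (adjusted p = 0.0360). RPL7A had 901, 1019, 939.8 and 941 CPM in libraries a to d with PFHxA, 962, 1036, 1136 and 1006 CPM with PFBA, and 1137, 1123, 989.8 and 1153 CPM in Control. The groups overlapped through PFHxA b and Control c. The fit of RPL7A with PFHxA against Control gave -0.21 ± 0.06 (log2 fold ± SE, adjusted p = 0.0350). RPL7 had 214, 205, 209 and 216 CPM in libraries a to d with PFHxA, 226, 224, 229 and 282 CPM with PFBA, and 244, 249.8, 247 and 324 CPM in Control. Control d was again far above its group, and PFBA d was far above the other PFBA libraries. On the log2 scale RPL7 differed by -0.33 ± 0.10 (SE) with PFHxA against Control, with an adjusted p of 0.0349. RPL9 had 14.9, 15.8, 18.5 and 16.1 CPM in libraries a to d with PFHxA, 17.6, 17.2, 17.6 and 18.6 CPM with PFBA, and 18.1, 18.3, 20.1 and 22.2 CPM in Control. PFHxA c lay above Control a and b. For RPL9, near the elongation factor site, log2 fold was -0.27 ± 0.08 (adjusted p = 0.0464).

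In the small subunit, RPS23 sits at the decoding centre and RPS14 on the platform where the mRNA leaves. They were the 2 of 8 members called on the list for the mRNA channel and decoding. That is 25% of the list, near the 23.2% called lower of all members, beside 8.82% of all genes. RPS23 had 671, 589, 646 and 629 CPM in libraries a to d with PFHxA, 659, 586, 679.6 and 751 CPM with PFBA, and 767, 725, 749.5 and 814 CPM in Control. PFHxA and Control did not overlap. This is a log2 fold of -0.27 ± 0.07 (SE) for RPS23 with PFHxA against Control and an adjusted p of 0.0178. RPS14 had 1232, 1222, 1240.3 and 1161 CPM in libraries a to d with PFHxA, 1144, 1230.0, 1314 and 1413 CPM with PFBA, and 1352, 1379, 1366 and 1591 CPM in Control. All PFHxA libraries lay below Control, with Control d far above the rest. RPS14 thus gave a log2 fold of -0.23 ± 0.07 (SE) with PFHxA against Control (adjusted p = 0.0355). Neither passed without Control d (adjusted p = 0.051 and 0.089). RPS7, a Diamond-Blackfan gene at chr2:3575205-3580919, gave the lowest fold among the small-subunit calls apart from RPS27L. RPS7 had 262, 271, 285 and 277 CPM in libraries a to d with PFHxA, 291, 262, 303 and 354 CPM with PFBA, and 335, 319, 347 and 424 CPM in Control. PFHxA libraries lay close together below Control. Fitted over all 12 libraries, RPS7 had -0.38 ± 0.10 (log2 fold ± SE) with PFHxA against Control (adjusted p = 0.0207). Pseudogene rows held 60.1% of the combined RPS7 counts, and the fold over gene and pseudogenes together was -0.38 (adjusted p = 0.0163).

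Of 19 Diamond-Blackfan genes among the members, 4 were lower with PFHxA (RPL5, RPL26, RPL31 and RPS7), 0 were higher, and the median fold was -0.21. These 4 are 21.1% of the list, near the 23.2% called lower of all members, beside 8.82% of all genes. Without Control d, 3 were lower and the median was -0.12. With the GC and length trend removed 0 were called. RPL10A, RPS18, RPL3 and RPL19, among the most abundant members per kilobase, were not called. RPL10A had 1036, 1063, 663 and 1042 CPM in libraries a to d with PFHxA, 1057, 1042, 1086 and 1177 CPM with PFBA, and 1152, 1141, 1169.9 and 1332 CPM in Control. PFHxA c alone was far below the other 11 libraries. RPL10A had a log2 fold change of -0.33 ± 0.13 (SE) with PFHxA against Control (adjusted p = 0.111). RPS18 had 1135, 1537, 1442 and 1619 CPM in libraries a to d with PFHxA, 1369, 1426, 1492 and 1846 CPM with PFBA, and 1439.8, 1264, 1818 and 1609.9 CPM in Control. The 3 groups overlapped (log2 fold -0.10 ± 0.14, adjusted p = 0.716). RPL3 had 2199, 2331, 2266 and 2119.7 CPM in libraries a to d with PFHxA, 2699, 2806, 2303 and 2407 CPM with PFBA, and 2429.7, 2612, 1945 and 2500.2 CPM in Control. RPL3 lies near the peptidyl transferase centre, and its groups overlapped (-0.09 ± 0.09, adjusted p = 0.557). RPL19 had 1109, 1034, 1025 and 983 CPM in libraries a to d with PFHxA, 1009, 1062, 1059 and 1085 CPM with PFBA, and 966, 1113, 1123 and 1200.4 CPM in Control. PFHxA and Control overlapped for RPL19 (-0.08 ± 0.06, adjusted p = 0.393). At the low end stood RPS26 and RPL21, most of whose combined counts lie on pseudogenes. RPS26 had 7.38, 8.66, 9.11 and 8.35 CPM in libraries a to d with PFHxA, 8.20, 8.36, 7.71 and 6.95 CPM with PFBA, and 10.2, 8.26, 8.25 and 11.7 CPM in Control. PFHxA and Control overlapped. The fit of RPS26 with PFHxA against Control gave -0.20 ± 0.12 (log2 fold ± SE, adjusted p = 0.317). RPL21 had 11.5, 12.9, 11.6 and 12.4 CPM in libraries a to d with PFHxA, 13.9, 10.8, 12.5 and 12.1 CPM with PFBA, and 13.5, 13.1, 13.9 and 15.9 CPM in Control. PFHxA lay below Control, and the fold was -0.22 ± 0.09 (adjusted p = 0.117). Summed with its pseudogenes RPL21 was lower by the test (-0.31, adjusted p = 0.0173).

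RPL37A, a zinc-binding large-subunit protein named here after its values were seen, ran the other way. RPL37A had 609, 631, 534 and 671 CPM in libraries a to d with PFHxA, 439, 553, 682 and 456 CPM with PFBA, and 280.1, 449, 369.5 and 592 CPM in Control. PFHxA and Control overlapped through PFHxA c and Control d, and Control ranged widely. On the log2 scale RPL37A differed by 0.53 ± 0.22 (SE) with PFHxA against Control, with an adjusted p of 0.140. Without Control d it was called higher, and DESeq2 called it higher over all 12 libraries.

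With PFBA against Control, edgeR called 0 of 82 members, and 1 of all 16554 genes (0.00604%). At an unadjusted p under 0.05, 25 members were lower (background 5.10%) and 0 were higher (background 4.75%). Of the members, limma-voom called 0 (0% of all genes) and DESeq2 called 1 (0.308% of the genes it gave an adjusted p). Fitted values were below 0 for 74 of 82 (50.9% of all genes), with a median of -0.14 over all members, -0.13 in the large and -0.16 in the small subunit. Without Control d the median over all members was -0.08. In 2 members, RPL36A among them, all 4 PFBA libraries lay below Control (2.80% of all genes), and in 0 above it (3.17%). RPL27 and RPS9 were among the 3 members with the smallest p. RPL27 is a Diamond-Blackfan gene. RPL27 had 680.3, 626, 685 and 672 CPM in libraries a to d with PFHxA, 643, 605, 606 and 752 CPM with PFBA, and 761, 714, 782 and 832 CPM in Control. PFBA d lay inside the control range. This is a log2 fold of -0.25 ± 0.07 (SE) for RPL27 with PFBA against Control and an adjusted p of 0.311. RPS9 lines the channel through which mRNA enters. RPS9 had 781, 821, 793 and 799 CPM in libraries a to d with PFHxA, 710.1, 721, 752 and 838 CPM with PFBA, and 823, 838, 909 and 1069 CPM in Control. Again PFBA d reached the control range, and Control d was the highest library. RPS9 thus gave a log2 fold of -0.27 ± 0.08 (SE) with PFBA against Control (adjusted p = 0.315). Without Control d, 11 members were lower at an unadjusted p under 0.05 (3.69% of all genes) and 1 was higher (3.64%); without PFBA d, 36 were lower (5.65%) and 0 higher (4.34%).

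At the same dose and time the acid with the longer chain, PFHxA, was called lower than PFBA for 3 of 82 members at an adjusted p under 0.05 and higher for 0. That is 3.66% of members, against 7.07% of all genes called lower and 3.84% called higher. The 3 were RPL11, RPL23A and RPL36A, and their PFHxA and PFBA libraries did not overlap. Fitted over all 12 libraries, RPL23A had -0.20 ± 0.05 (log2 fold ± SE) with PFHxA against PFBA (adjusted p = 0.0246). Summed with its pseudogene rows, which hold most of its reads, RPL23A gave -0.14 and was not called (adjusted p = 0.132). RPL36A had a log2 fold change of -0.27 ± 0.08 (SE) with PFHxA against PFBA (adjusted p = 0.0400). The RPL36A call was lost in 8 of the 12 fits that left out 1 library (highest adjusted p = 0.108). The median over members was -0.04 (-0.05 in the large and -0.02 in the small subunit), beside 0.00545 for all tested genes, and 4 members had all PFHxA libraries below all PFBA libraries (10.8% of all genes) and 0 had them above (9.24%). Fitted values were below 0 for 55 of 82, against 49.0% of all genes. For members called with PFHxA against Control, differences between the acids were mostly within error: the 95% interval of the log2 difference ran from -0.31 to 0.02 for RPL26, from -0.14 to 0.08 for RPL12 and from -0.35 to 0.07 for RPS7. The 2 comparisons with Control share its 4 libraries, Control d included, so they are not independent. Without PFBA d the 3 calls were lost and RPS21, named here for that reason alone, was called higher.

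The balance between the subunits overlapped across the 3 groups. The mean log2 CPM of large-subunit members minus that of small-subunit members was -0.14, -0.16, -0.21 and -0.14 with PFHxA, -0.09, -0.18, -0.09 and -0.15 with PFBA and -0.21, -0.11, -0.19 and -0.26 in Control. The ratio of large- to small-subunit counts was 1.58 ± 0.0412 with PFHxA, 1.60 ± 0.0447 with PFBA and 1.54 ± 0.0729 in Control (SD, n = 4 each), and Control d had the lowest ratio, 1.46. Relative to the Control mean, the large-subunit mean lay at -0.18, -0.17, -0.16 and -0.14 with PFHxA, -0.16, -0.18, -0.10 and 0.02 with PFBA and -0.08, -0.03, -0.04 and 0.15 in Control. The small-subunit mean lay at -0.23, -0.21, -0.14 and -0.18 with PFHxA, -0.27, -0.20, -0.20 and -0.02 with PFBA and -0.06, -0.12, -0.04 and 0.23 in Control. In both subunits all 4 PFHxA libraries lay below Control a to c, PFBA a to c did so too, and PFBA d did not.

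**Figure D5:**
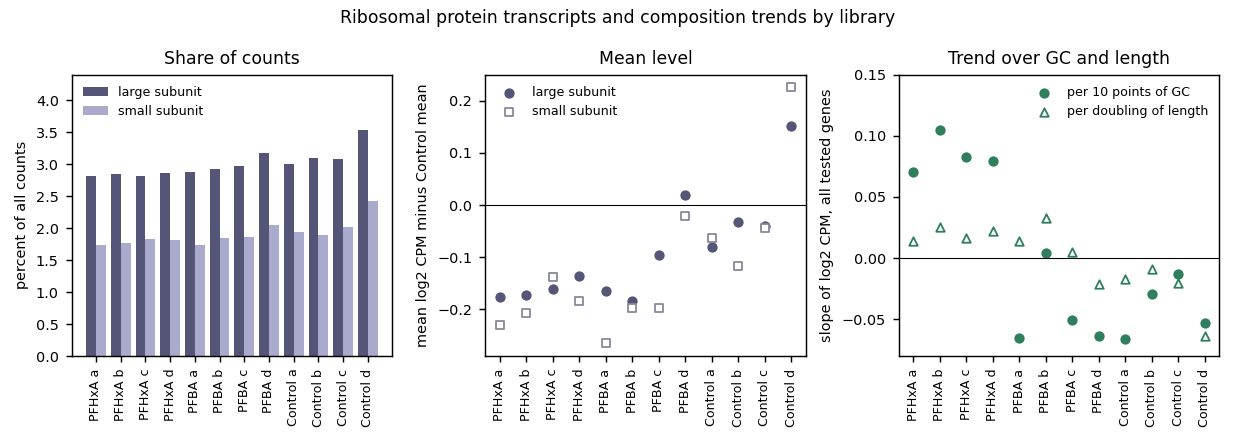
Left, percent of all counts held by large- and small-subunit genes in each library. Middle, their mean log2 CPM minus the mean of the 4 Control libraries. Right, the slope over GC content and over length for all tested genes, fitted to log2 CPM minus the gene's mean over the 12 libraries. Libraries are ordered PFHxA, PFBA, Control. Control d has the highest shares (3.53% and 2.42%), and the GC slope is 0.0706 or more in each PFHxA library.

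RPL26L1, the paralog of RPL26, was lower with PFHxA. RPL26L1 had 21.3, 21.3, 17.4 and 20.4 CPM in libraries a to d with PFHxA, 20.7, 20.6, 19.6 and 23.5 CPM with PFBA, and 24.5, 23.2, 23.9 and 26.6 CPM in Control. Its PFHxA libraries lay below Control. The fit of RPL26L1 with PFHxA against Control gave -0.29 ± 0.08 (log2 fold ± SE, adjusted p = 0.0297). RPS27L, a p53 target and the paralog of RPS27, was lower with PFHxA. RPS27L had 62.0, 57.6, 63.8 and 49.7 CPM in libraries a to d with PFHxA, 65.9, 56.5, 59.5 and 79.2 CPM with PFBA, and 73.6, 72.2, 74.8 and 85.2 CPM in Control. Control did not overlap PFHxA. On the log2 scale RPS27L differed by -0.39 ± 0.11 (SE) with PFHxA against Control, with an adjusted p of 0.0279. RPS27L was not called without Control d or with the GC and length trend removed. Its parent gave a fold of -0.21 ± 0.11 (adjusted p = 0.228). RPL22L1 had 44.4, 46.5, 51.9 and 53.2 CPM in libraries a to d with PFHxA, 51.2, 44.8, 56.5 and 69.4 CPM with PFBA, and 57.2, 57.5, 56.7 and 84.0 CPM in Control. PFHxA lay below Control. RPL7L1 had 178, 174, 182 and 241 CPM in libraries a to d with PFHxA, 179.7, 203, 170.3 and 239 CPM with PFBA, and 183, 234, 196 and 323 CPM in Control. RPL39L had 19.5, 18.0, 19.2 and 18.0 CPM in libraries a to d with PFHxA, 16.1, 15.4, 19.7 and 18.9 CPM with PFBA, and 19.5, 18.6, 19.0 and 24.7 CPM in Control. Groups overlapped for RPL7L1 and RPL39L. RPL22L1, RPL7L1 and RPL39L were not called: their folds with PFHxA were -0.38 ± 0.16, -0.27 ± 0.19 and -0.13 ± 0.10, and RPL22 and RPL39 gave -0.14 ± 0.07 and -0.33 ± 0.18. In RPL22L1 Control d (84.0 CPM) stood above the other control libraries (56.7 to 57.5 CPM). RPL3L, a striated-muscle paralog of RPL3, was at 0 in all control libraries and at most 0.168 CPM elsewhere, and RPL10L, the testis paralog of RPL10, was at most 0.0528 CPM in any library.

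Other mRNAs with a TOP tract, mostly translation factors, had 7 of 21 lower with PFHxA against Control and 0 higher, where 8.82% of all genes were lower and 6.08% higher. Without Control d, 4 of them were called lower (EEF1B2, EIF3E, NPM1 and SNHG1), against 6.52% of all genes. EIF3E, a subunit of the initiation factor that binds the 40S subunit, averaged 432 ± 28.4 CPM with PFHxA, 562 ± 45.6 with PFBA and 629.8 ± 87.6 in Control (SD, n = 4 each; log2 fold -0.54 with PFHxA against Control, adjusted p = 0.00271). NPM1, a nucleolar chaperone of ribosome assembly, averaged 847 ± 47.9 CPM with PFHxA, 1032 ± 70.8 with PFBA and 1128 ± 63.6 in Control (log2 fold -0.41, adjusted p = 0.00152). SNHG1, a snoRNA host transcript, gave -0.43 (adjusted p = 0.00206) and EEF1B2, an elongation factor subunit, -0.29 (adjusted p = 0.0170). After removal of the GC and length trend, EIF3E, NPM1 and SNHG1 were still called. Of 14 genes that control TOP mRNAs, 4 were called higher and 0 lower. They were MTOR (log2 fold 0.27, adjusted p = 0.00528), RPTOR (0.32, adjusted p = 0.00398), LARP1 (0.22, adjusted p = 0.00642) and TSC2 (0.19, adjusted p = 0.0189). MTOR and RPTOR encode the kinase of mTORC1 and its scaffold, and TSC2 restrains it. With the trend removed none of the 14 was called. In the main fit 4 of the 14 were fitted below 0 (50.6% of all genes). At an unadjusted p under 0.05, 7 were higher (background 13.0%) and 2 lower (15.5%). DESeq2 called 5 of the 14 higher and 1 lower, where 23.3% of the genes it gave an adjusted p were called.

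The machinery that builds ribosomes moved in both directions with PFHxA against Control. Of 14 genes of RNA polymerase I and its factors, 5 were lower and 1, POLR1A, its largest subunit, was higher (log2 fold 0.28, adjusted p = 0.00177), beside 8.82% of all genes lower and 6.08% higher. Without Control d this list had 3 lower and 1 higher, and with the GC and length trend also removed 0 and 0. TAF1D, part of the promoter selectivity factor, averaged 49.1 ± 2.82 CPM with PFHxA, 65.4 ± 5.03 with PFBA and 68.2 ± 5.23 in Control (log2 fold -0.47, adjusted p = 0.00161). TWISTNB, a polymerase subunit, gave -0.47 (adjusted p = 0.00162), and RRN3, the factor that brings the polymerase to its promoter, -0.21 (adjusted p = 0.00447). Of 24 rRNA processing genes, 4 were lower and 1 higher; NOP58, a core protein of box C/D snoRNPs, gave -0.44 (adjusted p = 0.00239) and RRP12 was the higher one (0.17, adjusted p = 0.0265). Of 23 genes of subunit assembly and export, 6 were lower and 2 higher. LTV1, an export factor of the 40S subunit, averaged 44.0 ± 4.45 CPM with PFHxA, 57.0 ± 1.13 with PFBA and 59.5 ± 0.968 in Control (log2 fold -0.44, adjusted p = 0.00138). RIOK2, a kinase of late 40S maturation, gave -0.43 (adjusted p = 0.00201), and SBDS, which releases a factor that keeps the 60S subunit from joining, -0.33 (adjusted p = 0.00264). With the GC and length trend removed, 2 lower and 1 higher remained on the first list, 2 and 0 on the second and 3 and 0 on the third. With PFBA against Control, edgeR called 0 genes on each of these 5 lists; at an unadjusted p under 0.05 there were 3 lower and 0 higher for other TOP mRNAs, 1 lower and 0 higher for the genes that control them, 1 lower and 0 higher for the polymerase I list, 2 lower and 0 higher for rRNA processing and 3 lower and 0 higher for assembly and export, where 5.10% of all genes were lower and 4.75% higher.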

How the data were processed

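The authors deposited whole-number read counts per gene for 12 libraries. Per the submitters' processing notes reads were aligned with HISAT2 2.0.4 to GRCh38; the read counter, annotation and strandedness were not stated. The 12 deposited FPKM columns were not used, since the columns' letters tie no library to a single labelled sample and 1 measure was kept; levels between genes are CPM per kilobase of the principal transcript, where the rule for named genes had planned FPKM. Counts were tested with edgeR 4.0.16 (R 4.3.3; filterByExpr, TMM scaling, robust quasi-likelihood test, 12 libraries in 1 fit) with Benjamini-Hochberg adjustment over 16554 genes and a threshold of 0.05. Alternatives were limma 3.58.1 (voom), DESeq2 1.42.0, other scalings and filters, removal of GC and length trends (GENCODE release 29) and leaving out each library. The procedure was tested on simulated data. Named with every library were members called in any comparison, the 3 with the smallest p where none was, and the 3 highest and 2 lowest levels per subunit. Tested paralogs were named in the same way. Of their parents, RPL7 and RPL26 have every library, and RPL22, RPL39 and RPS27 are given by fold only. For the untested paralogs, the parent RPL3 has every library and RPL10 has no value here. Other lists name at most 4 genes. Members and lists were chosen with earlier results of these data known. Some members are counted in the totals but not reported here by name.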

Additional observations from a re-analysis of the deposited data

Results flagged for a closer look

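In 135 groups of 4 libraries, 12 had a highest or lowest library that stood apart, measured as its gap to the nearest other library divided by the range of the 4. Chance flags about 1 in 20 groups, and the groups share libraries. Control d was the highest library in 8 of the 12: RPL24 (0.868), RPL5 (0.885), RPL7 (0.924), RPS14 (0.887), RPL10A (0.85), RPL22L1 (0.969), RPL39L (0.854) and the members' share of all counts (0.835). PFHxA c was lowest for RPL10A (0.933), and PFHxA d was highest for RPL7L1 (0.884). PFHxA a had the lowest mitochondrial share of its group (0.833). PFBA d was highest for RPL7 (0.908). What set these libraries apart was not tested.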

How the results depend on the processing

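With PFHxA against Control the 19 calls became 29 with DESeq2, 28 lower and 1, RPL37A, higher. That is 35.4% of members against 23.3% of the genes it gave an adjusted p, where edgeR called 23.2% of members and 14.9% of all genes. Calls fell to 2 with the GC and length trend removed (2.65% of all genes) and 3 with the trend of the principal transcript removed (2.18%). They were 1 with Control d left out and the trend removed (1.34%), and 0 for a minimum change of 1.5-fold. Leaving out 1 library gave 7 (without PFHxA b) to 22 calls, with 10 without PFHxA a, PFHxA c or Control d and 11 without PFHxA d. Shares of all genes called in either direction were 9.08% without PFHxA b, 13.8% without PFHxA a and 9.92% without PFHxA c. They were 10.6% without Control d and 10.04% without PFHxA d. The median log2 fold ran from -0.21 to -0.12. It was -0.0895 with Control d left out and the trend removed. With PFBA against Control, 1 member was called without a filter (0.00645% of all genes) and 1 with DESeq2 (0.308% of genes with an adjusted p). Leaving out 1 library gave 0 calls in each fit, and medians from -0.18 (without PFBA d) to -0.08 (without Control d). With PFHxA against PFBA the 3 calls became 0 with either trend removed (0.887% and 0.723% of all genes) and with Control d left out as well (1.2%). They were 0 for 1.5-fold and 1 with both Control d and PFBA d left out (8.81%). Leaving out 1 library gave 0 (without PFHxA c, 7.02% of all genes) to 4 calls there (without PFHxA a, 4.88% of members against 11.0% of all genes). There was 1 call without PFHxA b (6.17% of all genes), PFHxA d (7.21%) or PFBA d (6.62%). The median, -0.04, turned to 0.00483 without PFBA d and 0.00463 without both, and ran from -0.073 to 0.00483 over single libraries left out. Its small-subunit median turned to 0.0364 without PFBA d, 0.0362 without both and 4.74e-05 without PFHxA a, within -0.059 to 0.0364 over single libraries left out. Against Control, the PFHxA fold turned for RPL5 (0.0672 with the trend removed, 0.102 with Control d also left out), RPL19 (0.00273 with Control d left out and the trend removed), RPS18 (-0.179 to 0.000444 over single libraries left out, the highest without PFHxA a) and RPL22 (0.0256 with the principal transcript's trend removed). The causes were not tested. With the column letter as a replicate block, 27 members were called with PFHxA against Control (14.8% of all genes). The same block gave 0 with PFBA against Control (0% of all genes) and 2 with PFHxA against PFBA (11.1%). No label ties the letters to replicate numbers, and libraries of the same letter did not deviate together (correlations of their deviations from the group means ran from -0.0896 to 0.0625 over 12 pairs, and 0 of 12 libraries correlated best with its own letter in both other groups). The combined steps, the principal-transcript trend, leaving out both libraries and the block were chosen after seeing the data. Pseudogene copies and 4 libraries per group limit the precision for single members.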
